A study of Mus musculus with 6 samples.

Results

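S100 proteins are small calcium-binding proteins of vertebrates that mostly work as dimers. On binding calcium, most of them open a surface for partner proteins inside the cell, and some are released and act on receptors of other cells. Many of their genes lie side by side in the epidermal differentiation complex, the chromosome region that also holds genes of the cornified skin envelope, and several are prominent in squamous epithelium. The 10 genes described here are the rows of the deposited table named *S100a1*, *S100a4*, *S100a6*, *S100a8*, *S100a9*, *S100a10*, *S100a11*, *S100a13*, *S100a14* and *S100a16*, out of 18152 genes. They were chosen by name, with earlier results of these data known. All 10 lie on mouse chromosome 3 in the RefSeq annotation of GRCm38.p6, and all 10 passed the filter on low counts that left 14131 genes for testing.

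RNA was sequenced from the inner enamel epithelium (IEE), the cell layer that becomes the enamel-forming ameloblasts, of the mandibular first molar at E18.5. The 3 control libraries came from *Kdf1* fl/fl mice and the 3 conditional knockout (cKO) libraries from animals of genotype *K14-Cre;Kdf1* fl/fl. Both groups had a C57BL/6J background and carried the floxed *Kdf1* alleles. In cKO mice, Cre under the keratin 14 promoter deletes *Kdf1* in epithelial cells, so cells of other types in the sample keep the gene. The IEE was cut from frozen head sections by laser capture microdissection, and the sample labels also call the controls WT. The question put to these libraries was which transcripts change downstream of the deletion.

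Between 14713918 and 16675133 reads were assigned to genes per library. A count of 0 allows up to 3 counts, or 0.182 to 0.198 CPM (counts scaled to library size), a limit for counting error alone. *Kdf1* itself was at 53.2, 47.05 and 48.9 TPM (reads scaled by gene length and library) in the control libraries and at 0, 0.08 and 0 TPM in the cKO libraries. The epithelial markers *Krt14* and *Cdh1* were present in every library, at 582 TPM or more and 119 TPM or more. Library 1 of the cKO group stood apart, with the highest sums of neutrophil, macrophage, leucocyte and endothelial markers of all 6 libraries. Values without it are given below beside *S100a8*, *S100a9*, *S100a4*, *S100a1*, *S100b*, the receptors and the immune and endothelial lists. In such bulk samples, fewer cells of a type and less RNA per cell cannot be told apart.

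*S100a8* rose 9.18-fold and *S100a9* rose 10.5-fold in cKO IEE. These 2 of the 10 members passed the criterion (log2 fold change beyond 1 in either direction, adjusted p no higher than 0.05). Over all genes tested, 0.432% passed it, 0.142% as higher and 0.29% as lower. Of the other members, *S100a4* was higher and *S100a10*, *S100a14* and *S100a16* were lower in every cKO library than in any control library, without passing. In all, 6 of the 10 members had groups that did not overlap in TPM, against 28.1% of all genes tested (15.4% higher and 12.7% lower). The same 6 had an unadjusted p no higher than 0.05, against 24.5% of all genes (13% higher and 11.6% lower). *S100a1*, *S100a6*, *S100a11* and *S100a13* overlapped between the groups. On average 5 members were higher and 5 were lower. Their median log2 fold change was −0.14, and that of all genes was −0.0043.

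The number of members that passed depended on the test. With replicates of the same number blocked in edgeR, 4 passed, *S100a4*, *S100a8* and *S100a9* as higher and *S100a14* as lower, where 6.09% of all genes did (4.16% higher and 1.92% lower). DESeq2 called the same 4, where it called 6.81% of all genes (4.96% higher and 1.84% lower). By the adjusted p without the fold, 2 members passed in edgeR against 0.545% of all genes. With the block or in DESeq2 5 did so, *S100a16* being the fifth, against 9.87% and 11.7% of all genes. By either rule, 0 members passed in limma-voom, or in edgeR with DESeq2's size factors, with library size alone or on genes with 10 or more counts in each library, so *S100a8* and *S100a9* were not called there. That filter left *S100a8* untested.

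**Figure D1:**
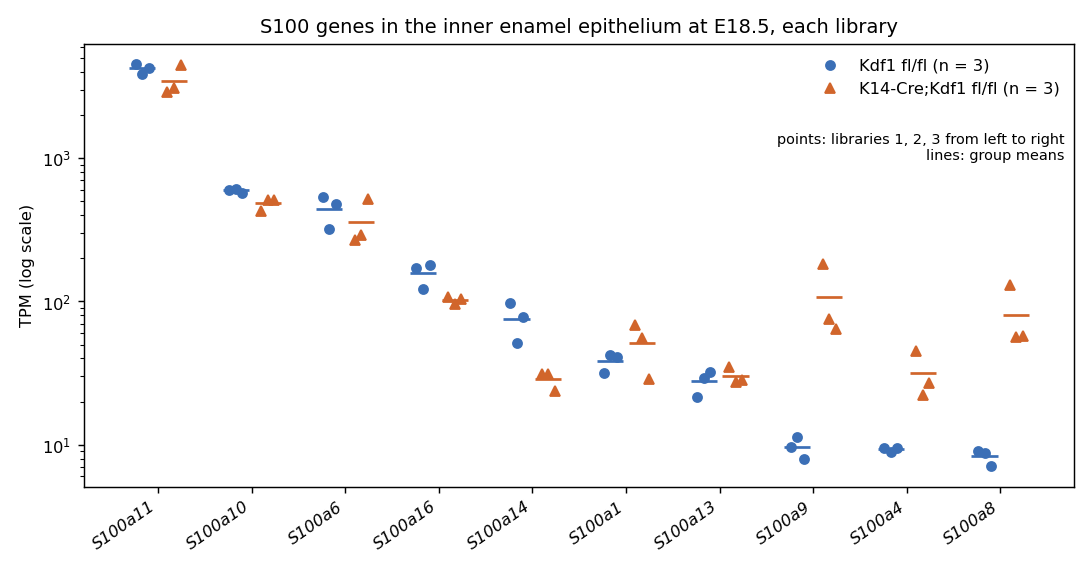
TPM (log scale) of the 10 S100 genes in each library, in order of their mean level in control mice, with circles for control, triangles for cKO and lines for group means (n = 3 per group). *S100a9*, *S100a4* and *S100a8* sit near 10 TPM in the controls and above 22 TPM in every cKO library, and *S100a14* lies at 51.4 to 98.2 TPM in the controls and at 23.75 to 31.2 TPM in the cKO libraries.

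In control mice, the levels per length ran over more than 2 orders of magnitude. *S100a11*, whose protein binds annexin A1 and is abundant in keratinocytes, stood at the top with 4238 ± 328 TPM (SD, n = 3), and 17 of the 14131 genes tested had a higher mean. It made up 75.3% to 76.3% of the summed TPM of the 10 members in this group. *S100a10*, at 596 ± 21.1 TPM, and *S100a6*, at 444 ± 112 TPM, came next, with no overlap between them. *S100a16* and *S100a14* followed at 157 ± 30.9 and 75.8 ± 23.5 TPM, again without overlap. *S100a1*, at 31.5 to 42.4 TPM, and *S100a13*, at 21.7 to 32.3 TPM, had overlapping ranges, with *S100a1* the higher in each of the 3 libraries. The 3 lowest, *S100a9*, *S100a4* and *S100a8*, all lay between 7.05 and 11.35 TPM. Their ranges overlapped, *S100a8* being the lowest in each library and *S100a9* and *S100a4* changing places.

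The order of the group means was another one in cKO mice, where *S100a9* came after *S100a11*, *S100a10* and *S100a6*, at 108 ± 65.5 TPM. It lay above *S100a16* in cKO library 1 alone, at 183 against 107.5 TPM, and below it in the other 2. *S100a8* followed at 81.0 ± 41.9 TPM. *S100a4*, *S100a13* and *S100a14* had the lowest means, at 31.5 ± 12.3, 30.1 ± 3.98 and 28.7 ± 4.26 TPM (SD, n = 3), and their ranges overlapped. *S100a8* and *S100a9* together took 0.262% to 0.395% of the members' summed TPM in the controls and 2.07% to 7.48% after the deletion. The summed TPM of all 10 members was 5604 ± 471 in control and 4762 ± 947 in cKO mice (SD, n = 3 per group). These sums overlapped, with p = 0.3 in a two-sided exact permutation test, whose smallest possible p here is 0.1.

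*S100a8* and *S100a9* encode the subunits of calprotectin, a zinc- and calcium-binding heterodimer that is abundant in neutrophils and monocytes and that stressed keratinocytes can also make. *S100a8* was at 9.1, 8.76 and 7.05 TPM in the control libraries and at 129, 56.5 and 57.05 TPM in the cKO libraries. *S100a9* was at 9.6, 11.35 and 7.89 TPM in the controls and at 183, 75.8 and 63.9 TPM after the deletion. For both genes, library 1 of the cKO group was the highest and the other 2 were close to each other, well clear of the controls. Few reads lie behind the control values, with 9 to 11 counts for *S100a8* and 20 to 26 for *S100a9*.

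The log2 fold change was 3.20 (SE 0.42) for *S100a8* and 3.39 (SE 0.42) for *S100a9*, and both had an adjusted p of 0.0498 (edgeR quasi-likelihood F-test, Benjamini-Hochberg). Many genes shared this value, 70 of them lying between 0.049 and 0.05. With replicates of equal number blocked, edgeR gave the adjusted p values 0.00903 and 0.00685. With cKO library 1 left out, the changes were 2.78 and 2.87 on the log2 scale, and the adjusted p values of 0.101 and 0.0881 missed the threshold. Calls for both genes were also lost without any 1 of the 3 control libraries or library 2 of the cKO group, and they stayed without library 3 of that group. *S100a9* ranked 75 and *S100a8* ranked 98 among the 14131 log2 fold changes from the highest down.

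The values of this pair ran in parallel from library to library. TPM of *S100a9* was 1.05 to 1.30 times that of *S100a8* in the controls and 1.12 to 1.41 times in cKO mice, so the ratio overlapped between groups (two-sided exact permutation test, p = 0.2). Patterns were compared by the root mean square difference of centred log2 CPM over the 6 libraries. Only genes with a mean of at least 5 CPM could be neighbours, so *S100a8* and neutrophil markers such as *Lcn2* and *Ltf* were excluded. Of the genes left, the nearest to both members was *Zbtb16*, a zinc finger transcription factor gene, at 0.26 from *S100a8* and 0.21 from *S100a9*. *Klf9* at 0.27 and *S100a9* itself at 0.28 came next for *S100a8*, and *Galnt15* at 0.23 and *Foxf2* at 0.32 for *S100a9*. *S100a8*, though not ranked, was nearer to *S100a9* than *Foxf2* was, at 0.28.

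Start sites of *S100a8*, *S100a9* and *S100a4*, the members with higher values in every cKO library, are shown by the 250 bases upstream (RefSeq, GRCm38.p6). Capitals mark the letters TATAAA (the TATA motif), TTGCNNAA (C/EBP), TGANTCA (AP-1), AACCNGTT (GRHL) and GAGGAA (ETS) on either strand. *S100a8* is on the plus strand at chr3:90668821-90669070, *S100a9* on the minus strand at chr3:90695722-90695971 and *S100a4* on the plus strand at chr3:90603520-90603769.
S100a8: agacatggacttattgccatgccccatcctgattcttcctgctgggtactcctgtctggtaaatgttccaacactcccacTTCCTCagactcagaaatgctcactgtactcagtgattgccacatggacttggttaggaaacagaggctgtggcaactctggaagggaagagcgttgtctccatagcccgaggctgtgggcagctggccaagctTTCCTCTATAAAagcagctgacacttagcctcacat
S100a9: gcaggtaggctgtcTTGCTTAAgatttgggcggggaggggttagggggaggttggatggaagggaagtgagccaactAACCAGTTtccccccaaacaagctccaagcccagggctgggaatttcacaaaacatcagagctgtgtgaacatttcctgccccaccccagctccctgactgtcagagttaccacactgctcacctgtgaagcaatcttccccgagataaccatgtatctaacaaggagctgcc
S100a4: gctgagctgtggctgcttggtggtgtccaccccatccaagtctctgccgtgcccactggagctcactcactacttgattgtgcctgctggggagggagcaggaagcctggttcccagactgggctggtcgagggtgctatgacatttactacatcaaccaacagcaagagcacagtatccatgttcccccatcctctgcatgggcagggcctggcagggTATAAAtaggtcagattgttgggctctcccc

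TATAAA began 30 bases upstream of the start of *S100a8* and 31 bases upstream of that of *S100a4*, and 12.4% of all 32851 promoter windows of the same length held these letters at any position. In *S100a8* an ETS match abuts the TATA box, and another lies 170 bases upstream. GAGGAA occurred in 23.3% of all windows. *S100a9* held no TATAAA in this window. It had the C/EBP letters 236 bases and the GRHL letters 173 bases upstream, which 9.56% and 1.79% of all windows held. Of the 10 members, 8 had a window in the table, with 9 starts, and *S100a10* and *S100a14* did not. AP-1 letters, held by 6.75% of all windows, were present at *S100a11* and at 1 of the 2 starts of *S100a16*. Such matches describe the sequence and do not show binding.

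Transcripts named for neutrophils were higher alongside *S100a8* and *S100a9*. Of 20 neutrophil markers, 12 were tested, and all 12 were higher on average in cKO mice, the median log2 fold change being 3.35. The 4 that passed, all higher, were *Lcn2* (4.01, SE 0.59), *Ltf* (3.71, SE 0.52), *Ngp* (3.46, SE 0.39) and *Stfa2l1* (3.33, SE 0.49), genes of granule or cytosolic proteins of neutrophils, and all 4 had an adjusted p of 0.0498 in edgeR. With the replicate block, 8 passed. The count was 0 with any 1 library left out except cKO library 3, without which it was 6. Summed TPM of the 20 markers was 44.6, 34.6 and 18.54 in the control libraries and 745, 183 and 138 in the cKO libraries. Without cKO library 1, 11 of the 12 were higher on average and the median was 2.10. Of the 20 markers, *Ly6g* and *Elane* were among those that the filter left untested. *Ly6g*, which defines mouse neutrophils, had 0 counts in every control library and 3, 1 and 1 in the cKO libraries. Such counts lie within the limit that a count of 0 allows. *Elane*, the neutrophil elastase gene, was at 0.5, 0 and 0 TPM in the controls and at 7.8, 0.51 and 0.67 TPM after the deletion, so that only cKO library 1 stood out. *Camp* and *Chil3*, also untested in edgeR, were higher in every cKO library than in any control library. *Camp* had 2, 0 and 1 counts in the controls and 16, 7 and 12 after the deletion. For *Chil3* the counts were 0, 1 and 1, then 44, 5 and 13. DESeq2 called both (adjusted p = 0.0342 and 0.00845) and none of the other untested markers.

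Relative to these markers, *S100a8* and *S100a9* had overlapping values in the 2 genotypes. Their summed TPM was 42.0% to 80.6% of the marker sum in control mice and 41.9% to 87.7% in cKO mice (two-sided exact permutation test, p = 0.8). *Mmp9*, which osteoclasts also express, made up a large part of that sum, and without it the values were 109% to 150% and 128% to 155% (exact permutation p = 0.8 again). Ratios and summed TPM of the members were examined only after the values had been seen, 10 quantities in all. The smallest Benjamini-Hochberg adjusted p over these 10 exact tests was 0.5. The part of these cells in the result was not tested.

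**Figure D2:**
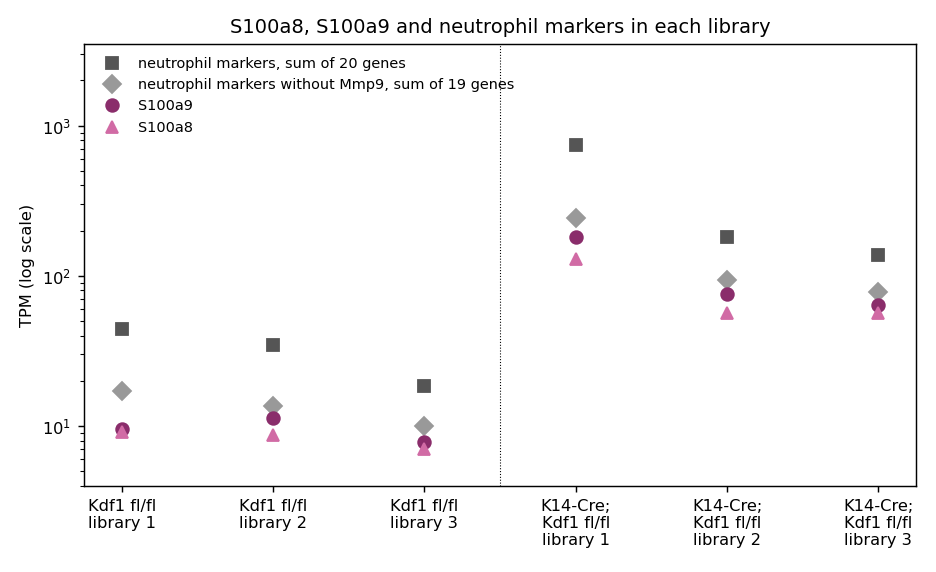
TPM (log scale) of *S100a8*, *S100a9*, the sum of 20 neutrophil markers and the same sum without *Mmp9* in each of the 6 libraries. All 4 series are higher in each cKO library than in any control library, and library 1 of the cKO group is the highest in each, with 129 TPM of *S100a8* and 745 TPM of the markers.

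Monocytes also carry both transcripts. Of 13 monocyte and macrophage markers tested, 12 were higher on average with a median log2 fold change of 1.30, and 0 passed in edgeR, where 8 had an unadjusted p of at most 0.05. DESeq2 called 6 of them, all higher. Their summed TPM was 86.8 to 198 in the controls and 164 to 556 after the deletion. Among them *Cd14*, a co-receptor for bacterial lipopolysaccharide, had the smallest p, at 0.43 to 0.95 TPM in the controls and 2.46 to 5.13 TPM in cKO mice. All 6 leucocyte markers tested were higher on average (median 1.54), and 0 passed in edgeR, with 4 at an unadjusted p of at most 0.05 and 3 called by DESeq2. Without cKO library 1 the median of the monocyte and macrophage list was 0.85 and that of the leucocyte list 0.95, and 0 passed in either.

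*S100a4*, known as fibroblast-specific protein 1 and a partner of the non-muscle myosin heavy chain of *Myh9*, was at 9.49, 8.92 and 9.55 TPM in the control libraries. It was at 45.4, 22.15 and 26.9 TPM in the cKO libraries. The control libraries were nearly level, and every library of the other group lay above them, library 1 the most. The log2 fold change of 1.58 (SE 0.34) had an adjusted p of 0.0704 in edgeR, against 0.0343 in the blocked fit and 0.0037 in DESeq2, so the call depended on the test. Without library 1 of the cKO group it was 1.34, with an adjusted p of 0.127. Among genes of at least 5 CPM, *Rora* and *Lepr* had patterns nearest to *S100a4*, each at a root mean square difference of 0.19. Among the members, with no limit on level, *S100a8* was the nearest, at 0.59.

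Markers of dental papilla and mesenchyme stood beside this. Of 14 tested, 11 were higher on average, the median log2 fold change being 1.45. *Twist1*, a mesenchymal transcription factor gene, passed, with 14.8 ± 6.38 TPM in control and 72.5 ± 29.8 TPM in cKO mice (SD, n = 3 per group). *Dspp* was lower in every cKO library, at 200 to 1336 TPM in the controls and 7.35 to 181 TPM after the deletion. With the replicate block, 8 passed as higher and 1, *Dspp*, as lower. In edgeR the count was 0 without any 1 of control libraries 1 and 3 and cKO libraries 1 and 2, 1 without control library 2 and 3 without cKO library 3. The summed TPM of this list overlapped, at 1724 to 7514 in the controls and 4118 to 5336 after the deletion. *Col1a1*, a collagen gene at 628 to 4161 TPM in the controls and 1479 to 2089 TPM after the deletion, weighed heavily in this sum. Whether mesenchymal cells or leucocytes have a part in the *S100a4* values was not tested.

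*S100a14*, whose protein is found mainly in epithelia, *S100a16* and *S100a10* were lower after the deletion. *S100a14* was at 98.2, 51.4 and 77.9 TPM in the control libraries and at 31.0, 31.2 and 23.75 TPM in the cKO libraries. The controls spread widely, library 2 being the lowest, while the libraries after the deletion lay close together and all under the controls. The log2 fold change of −1.48 (SE 0.27) reached an adjusted p of 0.0637 in edgeR, 0.0243 in the blocked fit and 4.04e-05 in DESeq2. Without library 2 of the control group, it was −1.74 with an adjusted p of 0.0478. It ranked 155 among the 14131 log2 fold changes from the lowest up. Among genes of at least 5 CPM, the pattern most like that of *S100a14* was that of *Slc16a6*, at 0.11. *Gm33887* at 0.18 and *Ezr*, the gene of the cortical linker protein ezrin, at 0.19 followed.

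*S100a16* was at 170.3, 122 and 179 TPM in the controls and at 107.5, 95.4 and 104 TPM in cKO mice, again with control library 2 nearest to the other group. Its log2 fold change of −0.71 (SE 0.20) lay under the fold of the criterion. The adjusted p was 0.09999 in edgeR, against 0.0374 in the blocked fit and 0.0249 in DESeq2. *S100a10*, whose protein has lost calcium binding and holds annexin A2 at the plasma membrane, was at 601, 614 and 573 TPM in the controls. After the deletion it was at 431, 509 and 509.8 TPM. The groups did not overlap, with a log2 fold change of −0.35 (SE 0.14), an adjusted p of 0.169 in edgeR and a 95% interval of −0.67 to −0.04 before adjustment. *Anxa2*, its annexin partner, was also lower in every library, at 868 to 1089 TPM in the controls and 679 to 780 TPM after the deletion, and did not pass (log2 fold change −0.43, SE 0.18, adjusted p = 0.187 in edgeR).

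Epithelial markers moved with these genes. Of 12 dental epithelium markers tested, 10 were lower on average, the median log2 fold change being −0.83. Only *Cdh1* (E-cadherin) passed in edgeR, and 5 passed as lower with the replicate block. In edgeR the count was 0 with any 1 library left out except cKO library 3, without which it was 2. *Amelx*, the gene of the enamel matrix protein amelogenin, was at 4017, 15804.5 and 32209 TPM in the controls and at 9.45, 173 and 699 TPM after the deletion, and weighed heavily in the sum of the list. Without it the summed TPM was 9855 to 14857 in the controls and 5482 to 8901 after the deletion. *Cdh1* was at 344 ± 55.8 TPM in control and 127 ± 12.1 TPM in cKO mice, and *Krt14* at 2095 ± 737 and 824 ± 334 TPM (SD, n = 3 per group). Measured against *Cdh1*, *S100a14* TPM was 18.1% to 27.8% in the controls and 16.8% to 26.3% after the deletion (two-sided exact permutation test, p = 1). Against *Krt14* it was 2.65% to 5.73% and 1.97% to 5.36% (exact permutation p = 1). Against *Epcam*, an epithelial adhesion gene that did not pass (log2 fold change −0.05, SE 0.21) and was chosen after its values were seen, it was 20.4% to 29.5% and 7.11% to 11.1%. These last ranges did not overlap, and p = 0.1 in the exact permutation test is the smallest it can give. *S100a16* TPM was 6.09% to 9.95% of that of *Krt14* in the controls. After the deletion it was 8.67% to 16.4% (exact permutation p = 0.2). These ranges overlapped, and the mean was higher after the deletion, at 13.6% against 7.84%. Against *Epcam*, *S100a16* TPM was 42.4% to 67.9% in the controls and 31.3% to 35.4% after the deletion, without overlap (exact permutation p = 0.1). The part of the epithelial share of the RNA in these values was not tested.

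**Figure D3:**
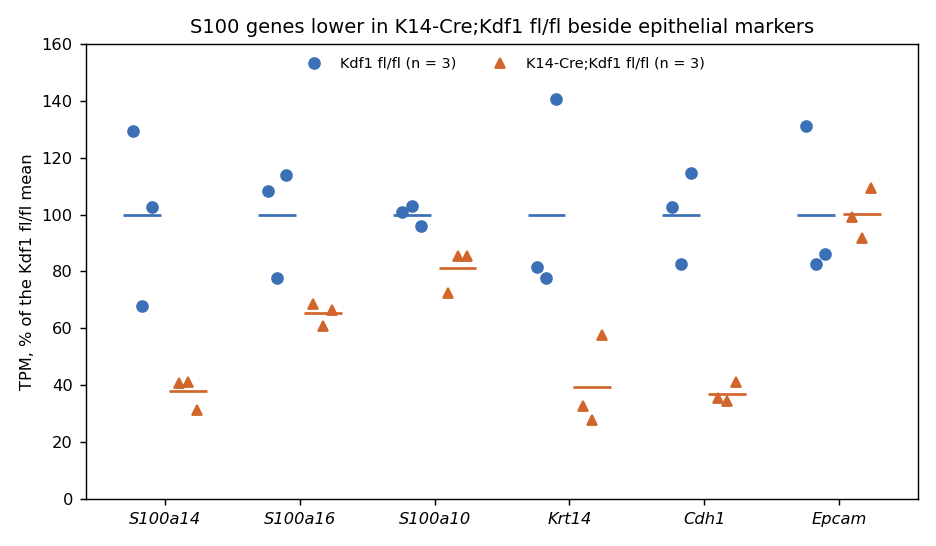
TPM of *S100a14*, *S100a16*, *S100a10* and the epithelial markers *Krt14*, *Cdh1* and *Epcam* in each library, as a percentage of the control mean (circles control, triangles cKO, lines group means, n = 3 per group). The 2 groups are separate for each gene except *Epcam*, whose ranges overlap.

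*S100a11* and *S100a6*, which were the most and the third most abundant members, did not pass. *S100a11* was at 4538, 3887 and 4288 TPM in the controls and at 2878, 3093 and 4488 TPM in cKO mice. *S100a6*, which encodes calcyclin, was at 534, 319 and 479 TPM and at 267, 290.5 and 523 TPM. In both genes libraries 1 and 2 of the cKO group were the lowest of all 6 and library 3 reached the control range. The log2 fold changes were −0.32 (SE 0.24, 95% interval −0.89 to 0.25) and −0.35 (SE 0.35, 95% interval −1.18 to 0.48), with adjusted p values of 0.448 and 0.577 in edgeR. Without library 3 of that group they were −0.60 and −0.77, with adjusted p values of 0.0675 and 0.114. Among all pairs of members, these 2 had the most similar patterns, at a root mean square difference of 0.19.

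*S100a1* and *S100a13* are neighbours that start on opposite strands and share 98 bases in the RefSeq annotation, so a read in that stretch could not be assigned to 1 of them without strand. *S100a1*, which acts on calcium release and uptake in heart and muscle, was at 31.5, 42.4 and 41.1 TPM in the controls and at 68.95, 55.2 and 28.9 TPM after the deletion. *S100a13*, which helps to export FGF1 and interleukin 1 alpha, was at 21.7, 29.1 and 32.3 TPM and at 34.6, 27.4 and 28.2 TPM. The log2 fold change of *S100a1* was 0.33 (SE 0.31, 95% interval −0.39 to 1.05) and that of *S100a13* was 0.05 (SE 0.24, 95% interval −0.52 to 0.62). Without cKO library 1, where *S100a1* was the highest, its change was 0.12. Adjusted p values were 0.539 and 0.920 in edgeR with all libraries, and the sign of *S100a13* turned to −0.090 without library 1 of the control group.

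**Figure D4:**
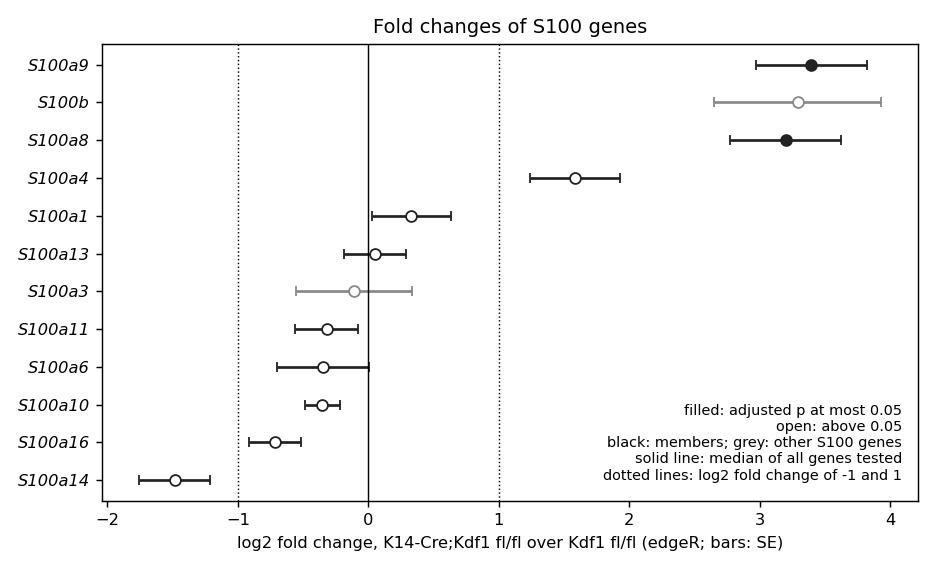
Log2 fold change of cKO (*K14-Cre;Kdf1* fl/fl) over control (*Kdf1* fl/fl) with its SE (edgeR, n = 3 per group) for the 10 members (black) and for *S100b* and *S100a3* (grey), filled where the adjusted p is at most 0.05. *S100a8* and *S100a9* are filled above 3, *S100b* lies between them with an open point, and *S100a14* is the lowest at −1.48.

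Other marker lists moved less clearly beside the members. All 9 endothelial markers were higher on average (median log2 fold change 0.93), with 0 called in edgeR, 5 at an unadjusted p no higher than 0.05 and 2 called by DESeq2. Their summed TPM was 194 to 260.2 in the controls and 729, 394 and 243 in the cKO libraries, and without cKO library 1 their median was 0.50. Of 6 keratinised epithelium markers tested, *Krt6a* alone passed, at 23.2 to 93.5 TPM in the controls and 2.84 to 5.84 TPM after the deletion, a call that was lost without control library 1 or 3 or cKO library 1 or 2. No erythroid (8 tested), skeletal muscle (2 tested) or chondrocyte marker (3 tested) passed in edgeR, where 0, 1 and 3 had an unadjusted p no higher than 0.05 and DESeq2 called 0, 0 and 1.

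Outside the 10 members, 5 further S100 genes were in the table and 2 were tested. *S100b*, on chromosome 10, encodes a protein of glia and Schwann cells that binds the receptor of *Ager*. It was at 0.93, 1.35 and 0.51 TPM in the controls and at 18.9, 6.3 and 3.97 TPM in cKO mice, without overlap. Its log2 fold change of 3.29 (SE 0.64) was of the size of those of *S100a8* and *S100a9*, but the adjusted p was 0.0637 in edgeR, against 0.0138 in the blocked fit and 1.92e-05 in DESeq2. Without library 1 of the cKO group it was 2.48, with an adjusted p of 0.104. The Schwann cell transcription factor gene *Sox10* was at 0.04 to 0.05 TPM in the controls and at 4.56, 0.36 and 0.36 TPM after the deletion, again highest in library 1. Of the 8 Schwann and neural markers 5 were tested, 4 of them lower on average, the median log2 fold change being −0.28. Their summed TPM was 195 to 380 in the controls and 108 to 166 after the deletion, and their part in the *S100b* values was not tested.

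*S100a3* was at 3.26 to 5.28 TPM in the controls and at 2.42 to 5.08 TPM after the deletion (log2 fold change −0.11, SE 0.44). *S100g*, which encodes the intestinal calcium carrier calbindin-D9k, had 1 or 2 counts in each control library and 0 in the others, under the limit that a count of 0 allows. *S100a7a* had at most 3 counts in any library and *S100z* at most 1, so no difference was detectable at this depth. The epidermal differentiation complex list, which holds the neighbours of the S100 cluster such as *Lor* and *Tchh*, had 13 of 51 genes in the table and 2 tested. *Lor*, the loricrin gene, was at 2.94 to 3.65 and 2.56 to 4.25 TPM. *Tchh*, the trichohyalin gene, was at 6.0 to 7.44 TPM in the controls and 3.32 to 5.62 TPM after the deletion, and did not pass (log2 fold change −0.65, SE 0.24, adjusted p = 0.161 in edgeR). DESeq2 called 1 further gene of the list, *Crnn* (cornulin), which the edgeR filter left out and which had 28, 10 and 13 counts in the controls and 0, 0 and 3 after the deletion (adjusted p = 0.0216).

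Receptors for released S100 proteins were examined next. Of 6 tested, 0 passed in edgeR, with 4 at an unadjusted p of at most 0.05, all higher, against 24.5% of all genes in either direction. DESeq2 called 3. *Ager*, the gene of the receptor RAGE, was at 12.8, 13.1 and 10.5 TPM in the controls and at 26.5, 46.4 and 24.7 TPM in cKO mice. Its log2 fold change was 1.37 (SE 0.28), with an adjusted p of 0.0669 in edgeR and 0.0238 with the replicate block. *Tlr4*, which binds S100A8 and S100A9, was at 0.28 to 0.46 TPM and at 2.56, 0.71 and 0.61 TPM, again highest in library 1 (log2 fold change 1.78, SE 0.57, adjusted p = 0.127 in edgeR). *Cd36* was at 1.59 to 1.74 TPM and at 23.4, 4.37 and 2.94 TPM in the same order, a log2 fold change of 2.52. Without cKO library 1 the log2 fold changes were 0.93 for *Tlr4* and 1.15 for *Cd36*, and that of *Ager* was 1.55. *Emb* was at 7.89 to 14.9 TPM in the controls and 16.2 to 29.4 TPM after the deletion. *Bsg*, the basigin gene, overlapped between the groups at 1048 to 1274 and 930.0 to 1102 TPM.

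Among genes of proteins that S100 proteins bind inside the cell, 20 of 23 were tested, 8 higher and 12 lower on average, the median log2 fold change being −0.09. In edgeR 0 passed, and 7 had an unadjusted p of at most 0.05, against 24.5% of all genes tested. In DESeq2 and with the replicate block 1 passed. *Anxa1*, the annexin partner of S100A11, was at 54.4, 61.9 and 53.3 TPM in the controls and at 125, 82.0 and 84.4 TPM after the deletion (log2 fold change 0.71, SE 0.15, adjusted p = 0.0689 in edgeR). *Fgf1*, which S100A13 helps to export, was at 26.8, 27.2 and 27.9 TPM and at 17.2, 18.8 and 16.9 TPM, so that its log2 fold change was −0.69 (SE 0.12) with an adjusted p of 0.0582. *Atp2a2*, the gene of the calcium pump that S100A1 stimulates, was at 155 to 189 and 105 to 119.8 TPM, with −0.67 (SE 0.15, adjusted p = 0.0730). *Plat*, the tissue plasminogen activator gene, was at 7.6 to 9.50 and 14.04 to 48.6 TPM, with 1.66 (SE 0.38, adjusted p = 0.0735), and 1.18 without cKO library 1. *Anxa11* was at 56.7 to 62.95 and 30.7 to 50.03 TPM. The groups of these 5 genes, picked by their small p, did not overlap. In the whole list 8 of the 20 did not overlap, 4 higher and 4 lower, against 28.1% of all genes tested.

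**Figure D5:**
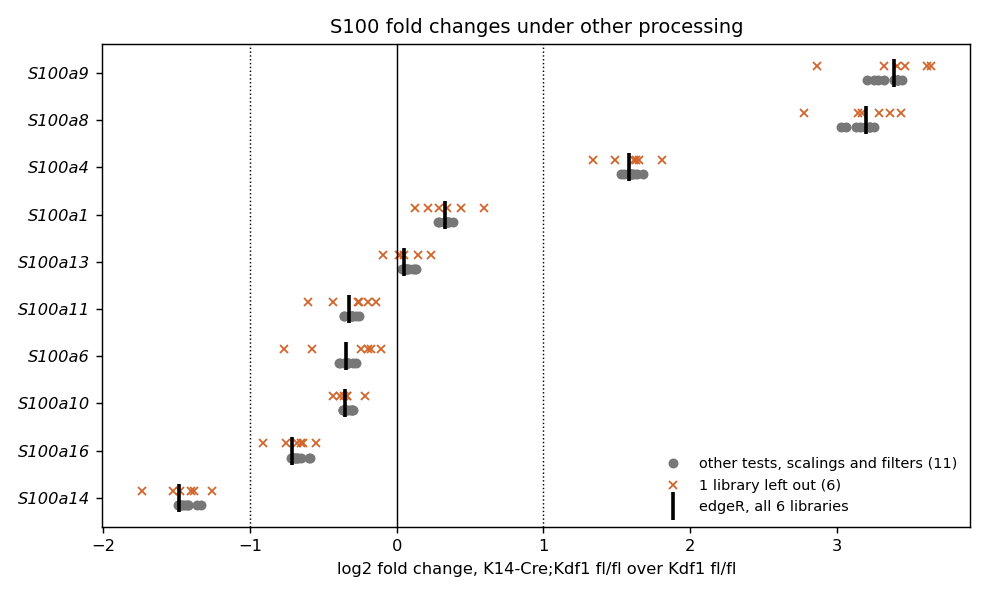
Log2 fold change of each member under edgeR with all 6 libraries (bar), under up to 11 other tests, scalings and filters (grey circles) and with each of the 6 libraries left out in turn (crosses). *S100a8* stays between 2.78 and 3.44 and *S100a9* between 2.87 and 3.64, and *S100a13* crosses 0 at −0.090.

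Across these alternatives the direction of 9 of the 10 members did not change. *S100a4* stayed between 1.34 and 1.81 and *S100a14* between −1.74 and −1.26 on the log2 scale. *S100a16* ranged from −0.91 to −0.55 and *S100a10* from −0.43 to −0.22. *S100a1* ranged from 0.12 to 0.60, *S100a11* from −0.60 to −0.14 and *S100a6* from −0.77 to −0.11, and none of these 3 was called in any. For both *S100a8* and *S100a9* the adjusted p reached 0.210 at its highest.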

How the data were processed

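The authors deposited 1 table of 18152 genes. Its estimated counts are the authors' reads per gene and library, not normalised, and 10.9% to 11.5% of a library's values were not whole. The deposited TPM values are scaled by length and library by the authors. The deposited FPKM values were not used. The submitters' processing notes name BWA 0.7.12, Picard 2.6.0 and StringTie, and the genome build and counting program are not given in the sources used here, so the only coordinates printed are those of the RefSeq promoters.

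Counts were rounded and analysed in R 4.3.3 with edgeR 4.0.16 (filterByExpr, 14131 genes kept, TMM factors, robust quasi-likelihood fits, two-sided F-tests, Benjamini-Hochberg adjustment over all genes tested). The SE was taken as the log2 fold change over the square root of F. A gene passed, by the study's criterion, when it had a log2 fold change beyond 1 in either direction and its adjusted p did not exceed 0.05. TPM was used for levels, with SD over 3 libraries. The labels call them biological replicates without saying whether each is 1 embryo, and the variance between libraries of 1 group was 35.4 to 77.3 times that of counting, which speaks only to a library deposited more than once. Same-numbered libraries deviated together (correlations across genes of 0.133, 0.344 and 0.515), so a fit with the replicate number as a block was set beside the fit without it.

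The members and gene lists were chosen with earlier results of these data known. Genes were named from *Kdf1*, the members, the other S100 genes, list genes past the criterion and otherwise up to 5 with the smallest unadjusted p, the 3 most abundant markers of a list, and the 3 genes of at least 5 CPM nearest to each member in pattern (log2 of CPM plus 0.5). Not every gene that this allows is printed, and 1 result is not reported here. Genes outside this rule (*Ly6g*, *Elane*, *Camp*, *Chil3*, *Sox10*, *Epcam*, *Anxa2*, *Crnn*) were chosen after their values were seen. Alternatives were DESeq2 1.42.0, other scalings and filters, limma 3.58.1 (voom, log2(TPM + 1), log2(TPM + 0.1)), a fit without the robust option, and the omission of each library. The procedure was tried on simulated counts, with the same dispersion for every gene and no deviation shared by same-numbered libraries. That simulation checks the procedure and does not bear on the calls made here. RefSeq (GRCm38.p6) gave promoter sequences for 8 of the 10 members, taken as 250 bases upstream.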

Additional observations from a re-analysis of the deposited data

How the results depend on the processing

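The log2 fold changes of the 10 members kept their direction under the alternatives, except *S100a13*, which turned to −0.090 without control library 1 and was 0.24 without control library 3. *S100a3*, outside the members, turned from −0.11 to 0.16 without control library 1 and to 0.18 without cKO library 1, and was −0.32 without cKO library 3. The causes were not tested. The number of members past the criterion, 2 in edgeR, was 4 with DESeq2 and 4 with the replicate block, the added ones being *S100a4* and *S100a14*. With the adjusted p alone it was 2 in edgeR and 5 in either of these fits, *S100a16* being the fifth. Both counts were 0 with DESeq2's size factors in edgeR, with library size alone, with at least 10 counts in every library and with limma-voom, and they ran from 0 to 2 with 1 library left out. *S100a8*, with 9 counts in 1 control library, was not tested under the filter of 10 counts. Over all genes, 61 passed in edgeR (20 higher, 41 lower). The count was 1038 with DESeq2 (757 higher, 281 lower), 860 with the replicate block (588 higher, 272 lower), 103 with no filter, 16 with log2(TPM + 1), 9 with library size alone (2 higher, 7 lower), 7 with DESeq2's size factors (1 higher, 6 lower), 6 with the filter of 10 counts (1 higher, 5 lower) and 6 with limma-voom (0 higher, 6 lower). It ran from 1 to 465 with 1 library left out, the highest without cKO library 3. Of the genes tested, 6.09% passed with the block and 6.81% with DESeq2. Library size alone shifted the median of all genes by 0.06. Low counts of *S100a8*, *S100g*, *S100a7a* and *S100z* limit the precision of their values.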
